A study of Mus musculus with 9 samples.

Results

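The comparison described here set myotubes kept 5 days in differentiating medium against myotubes kept 2 days in it. It used 6 of the 9 arrays of a time course of mouse primary myogenic cells, 3 arrays at each of these days, chosen by the sample titles. The other 3 arrays held cycling myoblasts at day 0, the proliferating precursors, and their values are given beside the myotubes as the starting level. All 9 samples were wild-type cells of the Balb/c strain that came from skeletal muscle. The labels do not tie the 3 arrays of a day to separate cultures or to separate mice, so a p-value here reflects how far these arrays differ from one another, and that spread may be technical only. The medium is taken from the titles, because the growth protocol lists a single medium with serum and bFGF for all samples. Total RNA had been checked on a Bioanalyzer and met the RNA integrity limit stated in the labels. It was labelled with biotin and hybridised to arrays that carry probe sets along whole transcripts.

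Myoblasts leave the cell cycle, fuse into multinucleated myotubes and then build sarcomeres, the contractile units. Fusion needs the membrane proteins myomaker and myomixer. After it, muscle cells replace embryonic and perinatal isoforms of the contractile proteins with adult ones, enlarge the systems that supply ATP, and remodel the actin cytoskeleton and matrix contacts of the myoblast. Cultured myotubes are known to reach only a part of adult fibre maturity without a nerve.

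The values are log2 expression levels as deposited, so a difference of 1 is a 2-fold difference. They had been normalized separately for each day, and levels at day 2 and day 5 were never brought to one distribution before deposit. The median array value was 4.26 on each day 2 array and 3.98 to 3.995 on the day 5 arrays, and the 75th percentile was 6.36 at day 2 and 5.69 to 5.70 at day 5. The set of arrays normalized together and the day cannot be told apart. Each gene was therefore compared on the deposited values and again after quantile normalization of all 9 arrays, called the common scale below. As deposited, 81.1% of the 16582 genes tested were lower at day 5, with a median log2 fold change of -0.40. On the common scale 45.4% were lower, with a median of 0.05. Log2 fold changes are day 5 minus day 2 and are given as a pair, the deposited scale first and the common scale second, and each is to be read against these medians.

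A gene was called higher or lower only where limma gave a Benjamini-Hochberg adjusted p of at most 0.05 on both scales, in the same direction, with at least a 2-fold difference on both. By this rule 127 genes were higher at day 5, which is 0.766% of the genes tested, and 609 were lower, 3.67%. On the common scale alone 461 genes were at least 2-fold higher (2.78%) and the same number as above, 609, lower (3.67%). The share of calls that were higher was 17.3% by the rule and 43.1% on the common scale alone, so the excess of falls over rises depends on the scale. Without the size limit 2679 genes were higher on both scales (16.2%) and 6735 lower (40.6%), while 4699 were called in opposite directions by the 2 scales. The adjusted p-values separate genes poorly here, because 60.2% of probe sets had one value on all 3 day 2 arrays and 56.7% had one value on all 3 day 5 arrays. The size of a difference on both scales is the more useful figure. As deposited, the day 2 and day 5 arrays overlapped in none of the 736 called genes, and the narrowest gap between the groups was 0.79. With the size limit and the closeness of arrays within a day this was nearly certain beforehand, so it adds no support to the calls.

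**Figure D1:**
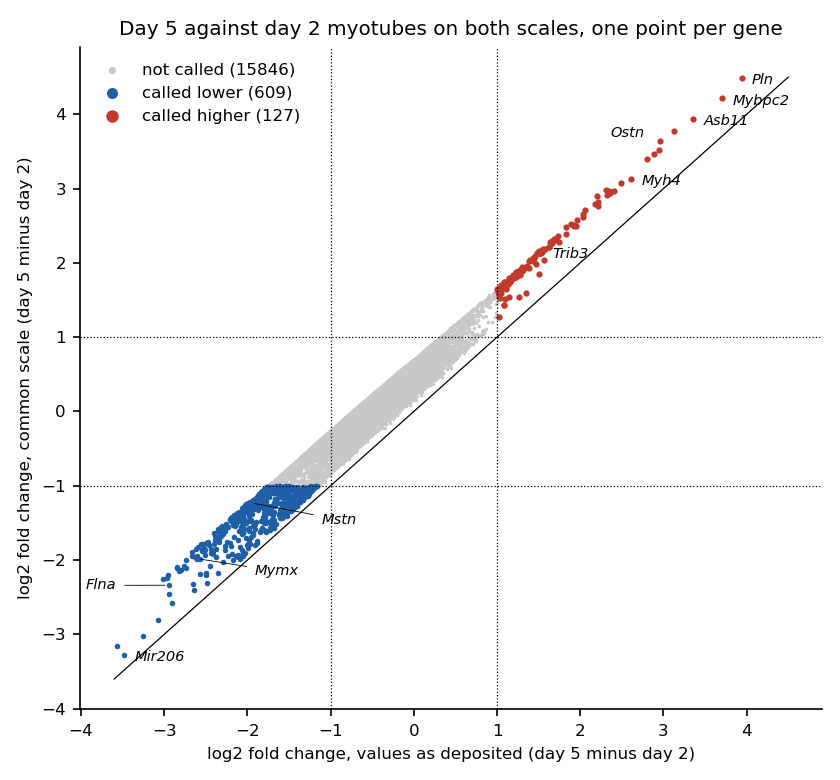
Log2 fold change of each of the 16582 genes tested, day 5 minus day 2, for deposited values (x axis) and the common scale (y axis); dotted lines mark 2-fold and the solid line equality. The 127 red genes are higher and the 609 blue genes lower by the rule on both scales, and the cloud lies above the line of equality because day 5 values were lower as deposited.

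The identity of the cells was checked with markers first. All 10 myotube markers tested, among them Myog, Myh3, Acta1, Ckm and Des, lay above the array median on both days, and none was called in either direction. Their summed level, as log2 of the sum of linear values, was 14.98 on the day 2 arrays and 14.52 to 14.54 on the day 5 arrays. Of 7 endothelial markers tested 1 lay above the array median at each day, and of 8 macrophage and leukocyte markers 1 did at day 2 and 0 at day 5. By contrast, 5 of 8 fibroblast markers lay above the array median at each day. Among all 16582 genes tested 11347 did at day 2 and 11615 at day 5. The summed level of the 8 fibroblast markers was 7.91 to 7.92 at day 2 and 7.40 at day 5, and Pdgfrb was the 1 member called lower. Of 9 smooth muscle and pericyte markers 6 lay above the array median at each day. Their summed level fell from 11.53 to 11.59 at day 2 to 9.93 to 9.96 at day 5, with Acta2 and Tagln called lower. Most of this sum was Acta2, with means of 11.44 and 9.67. The median of the 9 was -0.30 and 0.13. Without the size limit 3 were higher on both scales and 3 lower, against 16.2% and 40.6% of all genes. Acta2 and Tagln are also made by myoblasts and early myotubes. In these bulk samples fewer cells of a type and less RNA per cell cannot be told apart.

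A few genes of the contractile apparatus rose between day 2 and day 5, among them the fast isoforms Myh4, Mybpc2 and Myh2. Of 55 sarcomere genes tested 8 were called higher and 2 lower, against 0.766% and 3.67% of all genes. The list's median was -0.39 and 0.04, close to that of all genes. Other fast isoforms did not pass, with -0.25 and 0.11 for the troponin Tnnt3, -0.27 and 0.17 for Tnnc2, 0.03 and 0.31 for the light chain Myl1, and -0.62 and -0.19 for the alpha-actinin Actn3.

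Myh4, the fast IIb myosin heavy chain of adult muscle, read 3.91 on all 3 myoblast arrays, 7.87 on all 3 day 2 arrays, and 10.48, 10.48 and 10.50 on the day 5 arrays. It rose by 2.61 and 3.13 (standard error 0.004 and 0.006). Mybpc2, the fast isoform of myosin-binding protein C, had the largest rise among genes whose day 2 level was above the array median. Its value was 5.05 on every day 2 array and 8.78, 8.74 and 8.74 at day 5, a rise of 3.70 and 4.21. At 3.49 in myoblasts and 5.05 at day 2, most of its increase came after day 2. Xirp2, an actin-binding repeat protein, read 5.19 on all 3 day 2 arrays. Its day 5 arrays spread more widely, at 7.19, 7.23 and 7.79, and all lay above the day 2 arrays.

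The other 5 sarcomere genes rose from lower or moderate levels. Myl2, the slow and cardiac regulatory light chain, went from 5.10 on each day 2 array to 6.72 on each day 5 array. Myh2, the fast IIa heavy chain, read 5.09, 5.17 and 5.27 at day 2 and 6.30 on every day 5 array. Cmya5, a large protein anchored near the costamere, read 6.71 at day 2 and 8.08, 8.19 and 8.44 at day 5. Tmod4, the skeletal cap of the thin filament's pointed end, rose by 2.03 and 2.66 from a day 2 level near the array median, and Myot, the Z-disc protein myotilin, was the fifth. Among the list's falls, Myh7, the slow beta heavy chain, read 7.46 to 7.47 at day 2 and 5.38 on all 3 day 5 arrays, a difference of -2.08 and -1.40. Myl6b, a slow and nonmuscle alkali light chain, fell (-1.84 and -1.14). Near-identical heavy chain genes may share signal on such arrays, and this was not tested.

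**Figure D2:**
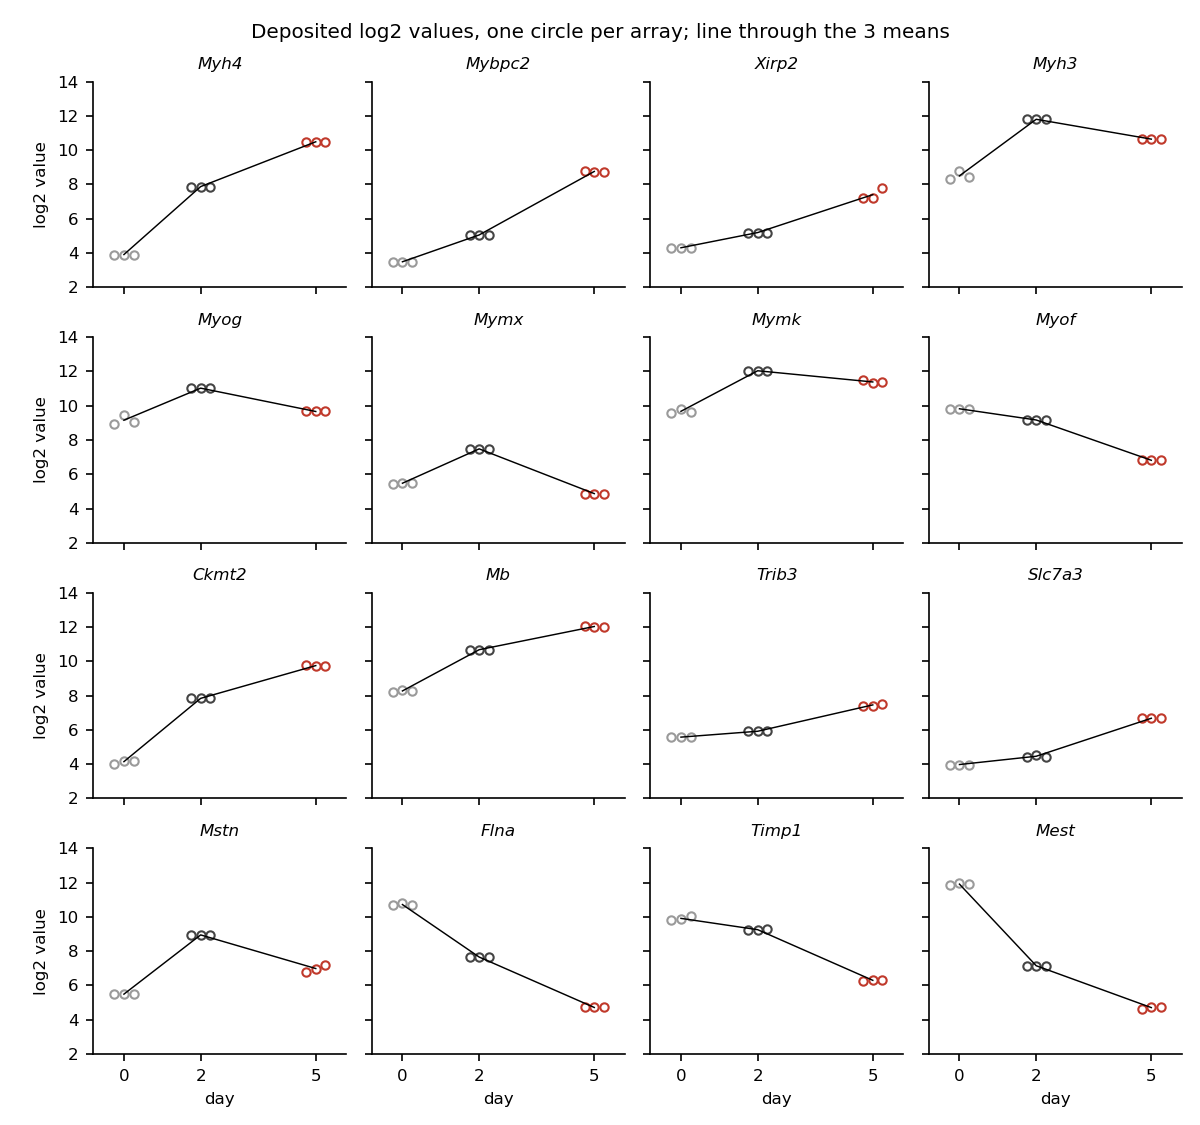
Deposited log2 values of 16 genes at days 0, 2 and 5, with 1 circle per array and a line through the means. Myh4, Mybpc2, Ckmt2 and Slc7a3 climb to day 5, Mymx and Mstn peak at day 2, and Flna, Timp1 and Mest step down at each time; arrays of one day mostly coincide.

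Several contractile genes with high day 2 levels were not called. Acta1, skeletal alpha-actin, read 12.57 on each day 2 array and 12.21 to 12.22 at day 5, and Actc1, the cardiac alpha-actin of embryonic muscle, read 12.56 and then 12.17 to 12.24. Myh1, the fast IIx heavy chain, read 11.70 to 11.71 at day 2 and 11.44 at day 5, or -0.26 and 0.08. The array maximum was 13.29 to 13.31 at day 2 and 13.14 to 13.17 at day 5, so a rise in these genes could be compressed, which was not tested. The embryonic and perinatal heavy chains lay lower at day 5 without reaching the size limit on both scales. Myh3 read 11.79, 11.80 and 11.79 at day 2 and 10.63, 10.66 and 10.63 at day 5, or -1.16 and -0.74. Myh8 read 10.76 on all 3 day 2 arrays and 9.39 on all 3 day 5 arrays, or -1.37 and -0.80. Of 13 developmental muscle isoforms tested, 4 fell (Ckb, Cdh15, Acta2 and Nes) and 0 rose, against 3.67% and 0.766% of all genes. The list's median was -1.16 and -0.74.

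Early and adult isoforms were also compared as pairs, so that an offset shared by all genes of an array cancels, although the offset between the days varied with level. In 30 listed pairs an early, slow or widely expressed isoform was set against its adult muscle counterpart, and 26 could be measured. The adult member moved up relative to its early member on both scales in 22 of the 26. In 10 of these the relative shift was at least 2-fold on both scales. The median shift over the 26 pairs was 0.97 and 0.87. The pairs were chosen with earlier results known, several share a gene, and the values are a description without a test.

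The widest relative shifts were those of Myh4 over Myh3, at 3.77 and 3.87, and of Mybpc2 over Mybpc1, at 3.29 and 3.35. Muscle creatine kinase Ckm gained 2.39 and 1.98 on the brain isoform Ckb, where Ckb fell from 8.50 to 6.43 on every array and Ckm stood at 11.01 and then 11.29 to 11.40. The epsilon subunit of the acetylcholine receptor, Chrne, which replaces the fetal gamma subunit at adult junctions, gained 1.22 and 1.31 on Chrng. Chrne itself read 4.26 on every day 2 array and 4.80 on every day 5 array, and was under the array median at day 2. The adult calcium release channel Ryr1 gained 1.09 and 1.49 on Ryr3. In 1 pair the shift was below 0 on both scales, that of the glycogen phosphorylases Pygm over Pygb, at -0.01 and -0.27. The cardiac and skeletal alpha-actins, Tnnt2 with Tnnt3, and the calcium pumps Atp2a2 with Atp2a1 differed by under 0.05 on both scales, with signs that depended on the scale.

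**Figure D3:**
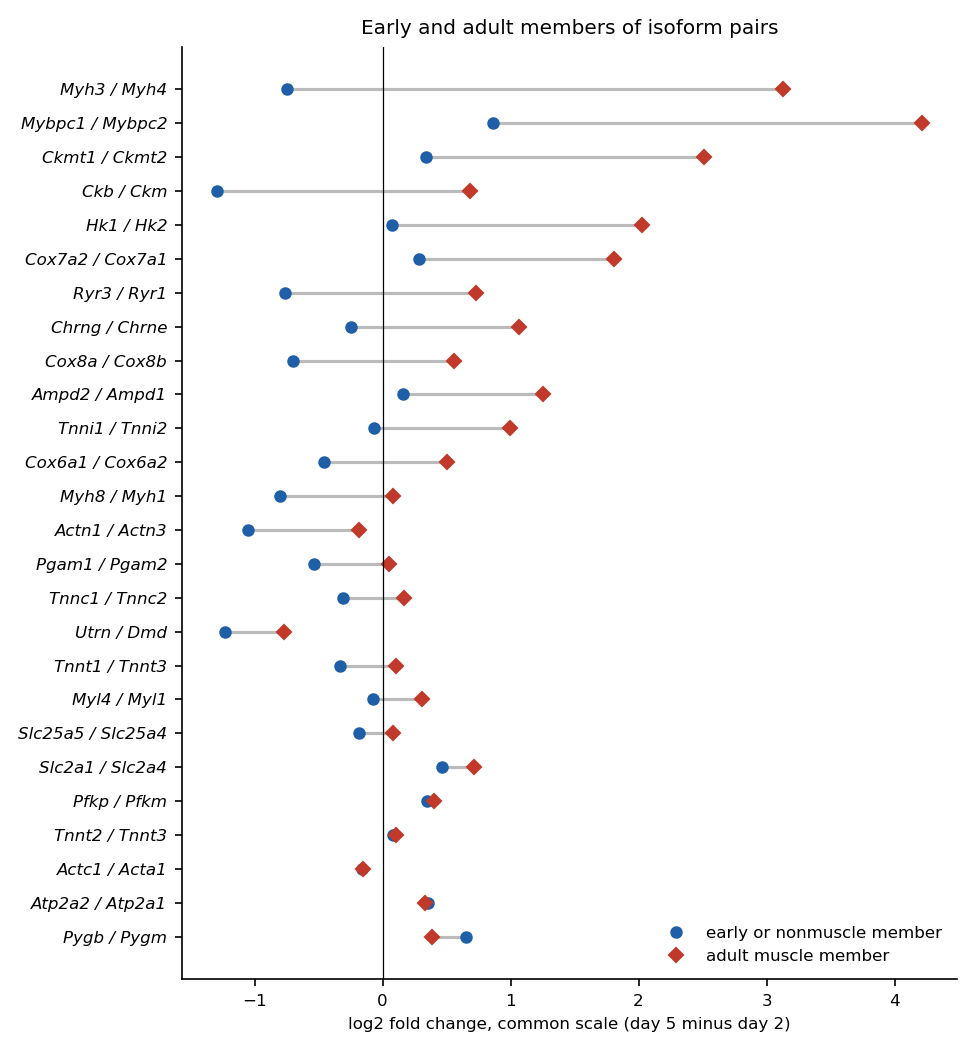
Log2 fold change on the common scale (x axis, day 5 minus day 2) of the early member (blue circle) and adult member (red diamond) of each of the 26 measured pairs, ordered by their difference. The red diamond lies to the right in most pairs, most widely for Myh3 with Myh4 and Mybpc1 with Mybpc2.

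Promoter sequences of 2 of these rising sarcomere genes are shown because members that moved together could share letters near their start sites. Each run covers 250 bases before to 50 after the annotated start, 5′ to 3′ on the gene's strand, from RefSeq on GRCm38.p6. Capitals in Myh4 (chr11:67237562-67237861, plus strand) mark the E-box CANNTG, the letters that MyoD-family factors and other bHLH proteins recognise. Capitals in Xirp2 (chr2:67445752-67446051, plus strand) mark a MEF2 site, searched in the strict 10-letter form.
Myh4: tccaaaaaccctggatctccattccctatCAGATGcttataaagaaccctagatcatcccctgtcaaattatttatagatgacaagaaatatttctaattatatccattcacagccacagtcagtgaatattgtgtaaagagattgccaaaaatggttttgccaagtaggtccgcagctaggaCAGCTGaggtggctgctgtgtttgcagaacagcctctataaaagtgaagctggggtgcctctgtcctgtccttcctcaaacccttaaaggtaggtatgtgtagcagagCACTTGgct
Xirp2: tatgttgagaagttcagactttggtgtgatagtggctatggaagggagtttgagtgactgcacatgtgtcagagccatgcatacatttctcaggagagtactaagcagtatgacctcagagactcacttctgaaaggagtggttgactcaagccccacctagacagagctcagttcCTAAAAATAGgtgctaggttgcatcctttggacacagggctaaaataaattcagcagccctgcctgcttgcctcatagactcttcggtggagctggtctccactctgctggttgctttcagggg
The Myh4 window held 3 E-boxes and the Xirp2 window 1 MEF2 site with its first base at position -74 from the start. Of the 8 windows of sarcomere genes called higher, 7 held an E-box. Only 1 of the 8, that of Xirp2, held the MEF2 site, so these genes did not share it. An E-box is common, being found on either strand in 66.7% of the 16359 promoter windows of genes tested. It was in 77.5% of the 142 windows of genes called higher and in 68.2% of the 591 windows of genes called lower. The strict MEF2 form was in 0.477% of windows of genes tested, in 4 of 142 for genes called higher (Gabrb2, Klhl33, Ndrg2 and Xirp2) and in 4 of 591 for genes called lower (Ckb, Dusp27, Gja3 and Slc20a1). These matches describe letters and not binding.

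Among calcium handling genes a single member rose. Pln encodes phospholamban, the inhibitor of the slow calcium pump. It was the 1 of 30 excitation-contraction coupling genes called higher, against 0.766% of all genes. It read 4.26 on all 3 day 2 arrays, under the array median there, and 8.21, 8.21 and 8.18 at day 5. Its rise of 3.94 and 4.49 was the widest of the genes named here. The list's median was -0.68 and -0.10, below that of all genes on both scales, and without the size limit 16 of the 30 were lower on both scales and 3 higher, against 40.6% and 16.2% of all genes. Of 17 sarcolemma excitability genes 0 were called in either direction by both scales, but on the common scale alone 5 were at least 2-fold higher, against 2.78% of all genes. These were Kcnc4, Kcnj11, Kcnma1, Atp1b1 and Fxyd1, which encode potassium channel and sodium pump subunits or regulators. Of 20 neuromuscular junction genes 0 rose and 3 fell, against 0.766% and 3.67% of all genes. The 3 were Erbb3, the neuregulin co-receptor, with Utrn and Nes. Utrn, utrophin, and the syntrophin Sntb1 were the 2 of 16 dystrophin complex genes that fell, against 3.67% of all genes. Utrn read 8.07 at day 2 and 6.09 at day 5 on every array. Dystrophin itself (Dmd) read 7.84 on each day 2 array and 6.27, 6.28 and 6.47 at day 5, or -1.50 and -0.77, and was not called.

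Genes of sugar use held their level better than most. Of 33 glycolysis and glycogen genes tested, 3 rose and 1 fell, against 0.766% and 3.67% of all genes. On each scale 29 of the 33 had a fold change above the median of all genes. Hk2, the muscle hexokinase, read 6.98, 7.02 and 6.98 at day 2 and 8.40, 8.39 and 8.34 at day 5. Phka1, the muscle regulatory subunit of phosphorylase kinase, rose by 1.23 and 1.87, and Phkg1, its catalytic subunit, rose from a day 2 level in the lowest 30% of the array. Pgm2, a phosphoglucomutase and phosphopentomutase, fell (-1.62 and -1.24).

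Oxidative genes were mostly not called. Of 60 oxidative phosphorylation and TCA cycle genes 1 rose and 0 fell, against 0.766% and 3.67% of all genes. The rise was that of Cox7a1, the heart and muscle subunit of cytochrome c oxidase. It read 8.63 on each day 2 array and 9.81, 9.81 and 9.84 at day 5. Of the 60, 53 had a fold change above the median of all genes on the deposited values and 54 on the common scale. The list's median was -0.19 and 0.33, beside -0.40 and 0.05 for all genes, so its sign depends on the scale. Without the size limit 7 of the 60 were higher on both scales and 3 lower, against 16.2% and 40.6% of all genes. None of 18 mitochondrial biogenesis regulators was called in either direction.

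The creatine system changed in its isoforms and in its synthesis. Ckmt2, the sarcomeric mitochondrial creatine kinase, read 4.03 to 4.21 in myoblasts, 7.84 on each day 2 array, and 9.77, 9.74 and 9.74 at day 5. Mb, myoglobin, the oxygen store of muscle, read 10.68 on each day 2 array and 12.06, 12.01 and 12.01 at day 5. In the opposite direction went both enzymes of creatine synthesis. Gatm, which makes guanidinoacetate, read 9.88 to 9.89 at day 2 and 7.02, 7.13 and 7.11 at day 5, and Gamt, which methylates it, read 8.84 on each day 2 array and 6.63 on each day 5 array. Both had been higher at day 2 than in myoblasts, where they read 7.15 to 7.52 and 6.54. Their falls were -2.79 and -2.13 for Gatm and -2.21 and -1.44 for Gamt.

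Lipid genes changed in both directions. Pdk4, the kinase that restrains pyruvate entry into the TCA cycle, read 7.03 on each day 2 array and 8.49 on each day 5 array. Acot2, a mitochondrial acyl-CoA thioesterase, rose by 1.49 and 2.13. In the same list of 36 fatty acid use genes 2 rose and 2 fell, against 0.766% and 3.67% of all genes. The falls were those of Cpt1a, the liver-type carnitine palmitoyltransferase (-2.14 and -1.54), and Angptl4, an inhibitor of lipoprotein lipase (-1.91 and -1.52). Of 17 fatty acid synthesis genes 3 rose and 0 fell, against 0.766% and 3.67% of all genes. Scd1, the stearoyl-CoA desaturase, read 6.22 on each day 2 array and 7.92 on each day 5 array. Acacb, the muscle acetyl-CoA carboxylase, rose by 1.18 and 1.80, and Thrsp rose from under the array median. Without the size limit 7 of the 17 were lower on both scales and 5 higher, against 40.6% and 16.2% of all genes. The lower ones included the main synthesis enzymes Fasn (-1.13 and -0.40), Acly (-1.03 and -0.30) and Elovl6 (-1.18 and -0.95), which were named after their values were seen. Of 20 sterol biosynthesis genes 0 rose and 1 fell, against 0.766% and 3.67% of all genes. The fall was that of Lss, lanosterol synthase, and the list's median was -0.91 and -0.28.

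**Figure D4:**
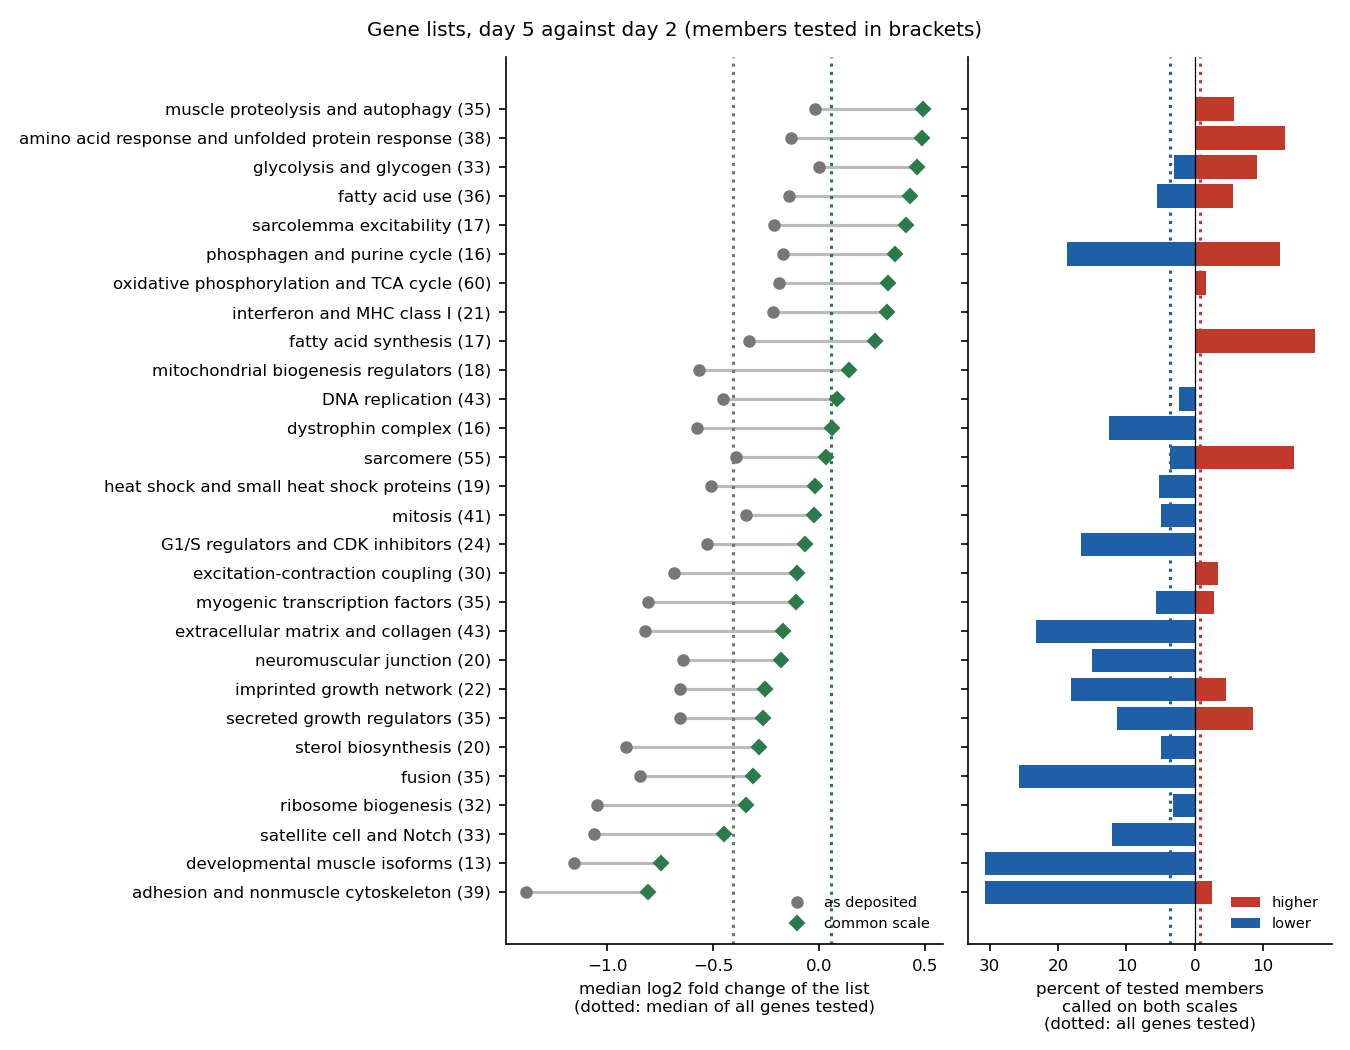
Left, median log2 fold change (day 5 minus day 2) of the tested members of each gene list for deposited values (grey circles) and the common scale (green diamonds), with dotted lines at the medians of all genes, -0.40 and 0.05; right, percent of tested members called higher (red) and lower (blue), with dotted lines at 0.766% and 3.67%. The adhesion and nonmuscle cytoskeleton, developmental isoform and fusion lists stand out to the lower side, and the amino acid, fatty acid synthesis and sarcomere lists to the higher side.

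Several genes of the amino acid and unfolded protein responses, driven by ATF4 and related factors when amino acids run short or protein folding is strained, were higher at day 5. Of 38 members tested 5 rose and 0 fell by the rule, against 0.766% and 3.67% of all genes. On the common scale alone 12 were at least 2-fold higher and 0 lower, against 2.78% and 3.67% of all genes. The median was -0.13 and 0.48. Slc7a3, a transporter of arginine and lysine, read 3.98 on each myoblast array, 4.42, 4.55 and 4.42 at day 2, and 6.68, 6.67 and 6.68 at day 5. Trib3, a pseudokinase induced by ATF4 and CHOP, read 5.92 on each day 2 array and 7.42, 7.42 and 7.53 at day 5.

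Vldlr, the very low density lipoprotein receptor, read 6.61 on each day 2 array and 8.22, 8.34 and 8.48 at day 5. Cth, the cystathionine lyase that makes cysteine, rose by 1.56 and 2.18. As deposited, its day 5 level was 6.21 to 6.31, beside 6.68 to 6.75 in myoblasts. The days were normalized separately, so these deposited values do not settle which of the 2 levels was higher. Casp12 rose from a level in the lowest 30% of the day 2 arrays. The other 7 members that were 2-fold higher on the common scale alone were Slc7a11, Atf3, Nupr1, Sdf2l1, Herpud1, Ddit3 and Mthfd2. Nupr1, a small stress-induced chromatin protein, read 5.57 on each day 2 array and 6.22, 6.22 and 6.25 at day 5, or 0.66 and 1.29. Asns, asparagine synthetase, another textbook target, did not move with them. It read 10.94 on each day 2 array and 10.86 to 10.89 at day 5, or -0.07 and 0.36.

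The promoters of 3 of these genes are shown, with the core of the amino acid response element in capitals. The core was searched on both strands as TGATGNAA, the joint site of ATF4 and C/EBP proteins, and appears below as its reverse complement. The runs have the same extent and source as above, for Trib3 at chr2:152344011-152344310, minus strand, Vldlr at chr19:27216770-27217069, plus strand and Nupr1 at chr7:126625421-126625720, minus strand. Vldlr has 2 windows in the table, and the one with a match is printed.
Trib3: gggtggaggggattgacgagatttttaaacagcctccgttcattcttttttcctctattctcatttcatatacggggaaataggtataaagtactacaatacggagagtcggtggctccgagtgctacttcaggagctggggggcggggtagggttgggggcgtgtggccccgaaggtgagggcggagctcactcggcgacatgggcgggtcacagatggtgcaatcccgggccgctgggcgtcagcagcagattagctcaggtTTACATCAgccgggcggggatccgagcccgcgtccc
Vldlr: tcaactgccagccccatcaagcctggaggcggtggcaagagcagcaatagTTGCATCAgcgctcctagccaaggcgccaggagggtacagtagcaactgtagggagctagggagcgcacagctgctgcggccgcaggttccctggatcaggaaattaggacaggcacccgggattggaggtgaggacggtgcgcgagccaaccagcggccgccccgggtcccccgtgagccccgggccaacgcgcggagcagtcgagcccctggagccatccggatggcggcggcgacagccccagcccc
Nupr1: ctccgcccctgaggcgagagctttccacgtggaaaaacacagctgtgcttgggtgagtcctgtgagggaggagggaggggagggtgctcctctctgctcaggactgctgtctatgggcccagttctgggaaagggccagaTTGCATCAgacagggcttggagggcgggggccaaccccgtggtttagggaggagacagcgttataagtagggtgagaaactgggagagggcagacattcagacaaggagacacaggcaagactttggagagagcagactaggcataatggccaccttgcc
A core was present in 6 of the 10 genes of the list that were higher on the common scale and have a promoter entry (Atf3, Herpud1, Nupr1, Slc7a11, Trib3 and Vldlr). It was in 3 of the 24 other members with an entry (Asns, Chac1 and Fgf21), and in 2.41% of the windows of genes tested. The list holds known targets, so this is a description of its members. The 3 genes with a core that were not called include Asns, whose level was nearly flat.

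Few muscle protein turnover genes were called. Of 35 proteolysis and autophagy genes 2 rose and 0 fell by the rule, against 0.766% and 3.67% of all genes, and the median was -0.02 and 0.49. Asb11, a SOCS-box subunit of a ubiquitin ligase, read 3.45 in myoblasts, 4.41, 4.33 and 4.33 at day 2, and 7.71 on each day 5 array, a rise of 3.36 and 3.94. Klhl33, a substrate adaptor of the cullin ligase family, rose by 1.28 and 1.86 from under the array median. The ligases best known from atrophy were not called. Fbxo32 read 6.18 on each day 2 array and 6.48 at day 5, and Trim63 read 7.31 and then 6.95 to 6.99, or -0.35 and 0.36. These 2 genes were singled out after their values were seen.

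Genes of cell fusion were often lower at day 5. Of 35 tested 9 were called lower and 0 higher, against 3.67% and 0.766% of all genes. Their median was -0.84 and -0.31. Mymx, myomixer, read 5.45, 5.50 and 5.50 in myoblasts, 7.48 on each day 2 array and 4.87 on each day 5 array, a difference of -2.61 and -1.98. Its day 5 arrays lay below the myoblast arrays as deposited. Mymk, myomaker, its partner in membrane merger, was not called. It read 12.04 on each day 2 array and 11.48, 11.31 and 11.36 at day 5, or -0.65 and -0.31. The difference between the falls of Mymx and Mymk was not tested, and Mymk lay near the top of the scale.

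Myof, myoferlin, a membrane repair and fusion protein, read 9.17 at day 2 and 6.82 at day 5 on every array. Cdh15, M-cadherin, read 9.00 to 9.01 at day 2 and 6.69 on each day 5 array, and Cdh2, N-cadherin, read 9.46 and then 7.36 to 7.39. The integrin subunits Itga3 and Itga4 and the integrin ligand Vcam1 fell, as did Ehd2 and Trio. Itga4 at day 5 was under the array median.

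The regulators of myogenesis themselves mostly stayed within 2-fold on one scale or the other. Of 35 myogenic transcription factors 1 rose and 2 fell, against 0.766% and 3.67% of all genes. Myf6 (MRF4), the myogenic factor typical of adult fibres, read 4.68 to 4.71 in myoblasts, 7.75, 7.73 and 7.75 at day 2, and 9.16, 9.16 and 9.23 at day 5, a rise of 1.44 and 2.07. Myog, the factor that drives terminal differentiation, read 11.02 on each day 2 array and 9.66 on each day 5 array, or -1.36 and -0.80, under the size limit on the common scale. Myod1 read 10.60 to 10.61 and then 9.52, or -1.09 and -0.50. Mef2c read 11.00 to 11.02 and then 10.64, 10.75 and 10.79, or -0.28 and 0.15. The 2 falls were Eya4, a phosphatase and transcriptional cofactor, and Vgll3, a cofactor of TEAD proteins, the latter from 8.54 to 6.35 on every array.

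Genes of the satellite cell state and Notch signalling were lower in part. Of 33 tested 4 were called lower (Cxcr4, Vcam1, Heyl and Fgfr4) and 0 higher, against 3.67% and 0.766% of all genes, and the median was -1.06 and -0.45. With 75th percentiles of the arrays brought to one value Vcam1 (-0.87), Heyl (-0.78) and Fgfr4 (-0.83) lost their calls, and Fgfr4 also did with quantile normalization over the 6 myotube arrays (-0.98). Cxcr4, a chemokine receptor of migrating myoblasts, read 9.72 to 9.75 in myoblasts, 6.02 to 6.04 at day 2 and 4.20 to 4.40 at day 5. Pax7 read 7.86 to 7.89, 5.73 and 4.97 at the 3 times, or -0.76 and -0.21 between day 2 and day 5, and was not called.

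The cell cycle lists differed in how many members lay above the array median at day 2. Of 41 mitosis genes 12 did, beside 30 of 43 DNA replication genes and 22 of 24 G1/S genes. Of all 16582 genes tested 11347 did, so the share of DNA replication genes was near that of genes in general. Among the mitosis genes 2 were called lower, against 3.67% of all genes. These were Ect2 and Kif23, both under the array median at day 5. Among the DNA replication genes 1 was called, Rrm1, the large subunit of ribonucleotide reductase. It read 9.58 on each day 2 array and 6.61 on each day 5 array, among the widest falls. Of the 24 G1/S genes 4 fell and 0 rose, against 3.67% and 0.766% of all genes. Cyclin D1 (Ccnd1) read 11.13 in myoblasts, 7.14, 7.26 and 7.13 at day 2, and 5.45 at day 5. E2f8 fell (-2.26 and -1.87), as did Cdk2 (-1.84 and -1.13) and Rb1, the retinoblastoma protein gene (-1.87 and -1.14). Without the second day 2 array the fall of Ccnd1 was -0.98 on its smaller scale, and the call was lost.

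The actin cytoskeleton and adhesion list had the lowest median, -1.38 and -0.80, of the lists described. Of 39 genes tested 12 fell and 1 rose, against 3.67% and 0.766% of all genes. Flna, filamin A, a crosslinker of cortical actin, read 10.69, 10.79 and 10.69 in myoblasts, 7.65, 7.67 and 7.65 at day 2, and 4.72 on each day 5 array. Its difference of -2.94 and -2.34 was among the widest of any gene above the array median. Actb, beta-actin, read 11.27 on each day 2 array and 9.21, 9.25 and 9.25 at day 5, or -2.04 and -1.45. A gene often used as a constant reference was therefore not constant on either scale.

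Cald1, caldesmon, read 7.61 at day 2 and 5.10 at day 5 on every array. The others that fell were Actn1 and Actn4, nonmuscle alpha-actinins, Cnn2, calponin 2, Tagln, transgelin, Tpm4, Myl6, the tubulins Tubb5 and Tubb2b, and Lpp. The 1 rise was Ankrd23, a stretch-responsive ankyrin repeat protein of the I-band, which read 8.60 to 8.64 at day 2 and 9.98 on each day 5 array. The smooth muscle marker sum given above, most of it Acta2, moved in the same direction, and its part in this result was not tested. Many such genes are textbook targets of serum response factor, which binds the CArG box. In the promoter of Cnn2 (chr10:79988350-79988649, plus strand), shown for that reason with the CArG box in capitals, 1 match began at position -56 from the start.
Cnn2: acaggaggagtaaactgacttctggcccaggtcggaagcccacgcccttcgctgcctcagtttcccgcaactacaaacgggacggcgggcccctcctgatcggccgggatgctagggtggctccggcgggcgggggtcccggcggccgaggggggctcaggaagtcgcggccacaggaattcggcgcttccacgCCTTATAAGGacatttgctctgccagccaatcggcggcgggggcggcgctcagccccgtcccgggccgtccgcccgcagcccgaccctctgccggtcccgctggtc
A strict CArG box was in 1.39% of the windows of genes tested and in 2 of the 12 windows of list members called lower. It was in 11 of 591 windows of all genes called lower and in 3 of 142 of genes called higher. Other letter patterns were searched in the same 12 windows. The letters CATTCC were in 5 of them, against 12.8% of the windows of genes tested. An E-box was in 9 of them, against 66.7%, and the strict MEF2 form and the amino acid response element core were in 0.

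Matrix genes fell in part. Of 43 tested 10 were called lower and 0 higher, against 3.67% and 0.766% of all genes, and the median was -0.82 and -0.17. Timp1, an inhibitor of metalloproteinases, read 9.23, 9.23 and 9.31 at day 2 and 6.24, 6.33 and 6.33 at day 5. Fn1, fibronectin, read 7.94, 7.98 and 7.94 and then 5.31, 5.48 and 5.44. Ccn2, the connective tissue growth factor, read 5.02 in myoblasts, 7.51 at day 2 and 4.91 at day 5, so that its level was high at day 2 alone. Lamb1, Tnc, Thbs1, Timp3, Nid2, Postn and Col8a1 also fell. Col1a1 read 5.27 at day 2 and 4.96 at day 5, or -0.31 and 0.21, and was not called.

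Genes of ribosome biogenesis lay lower almost throughout. Nop58, a core protein of box C/D small nucleolar particles, was the 1 of 32 called at least 2-fold lower, against 3.67% of all genes. It read 8.72 on each day 2 array and 6.53, 6.86 and 6.98 at day 5. Without the size limit 26 of 32 were lower on both scales and 0 higher, against 40.6% and 16.2% of all genes. As deposited 0 of the 32 lay above the median fold change of all genes, and on the common scale 1 did. The list's median was -1.05 and -0.35.

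**Figure D5:**
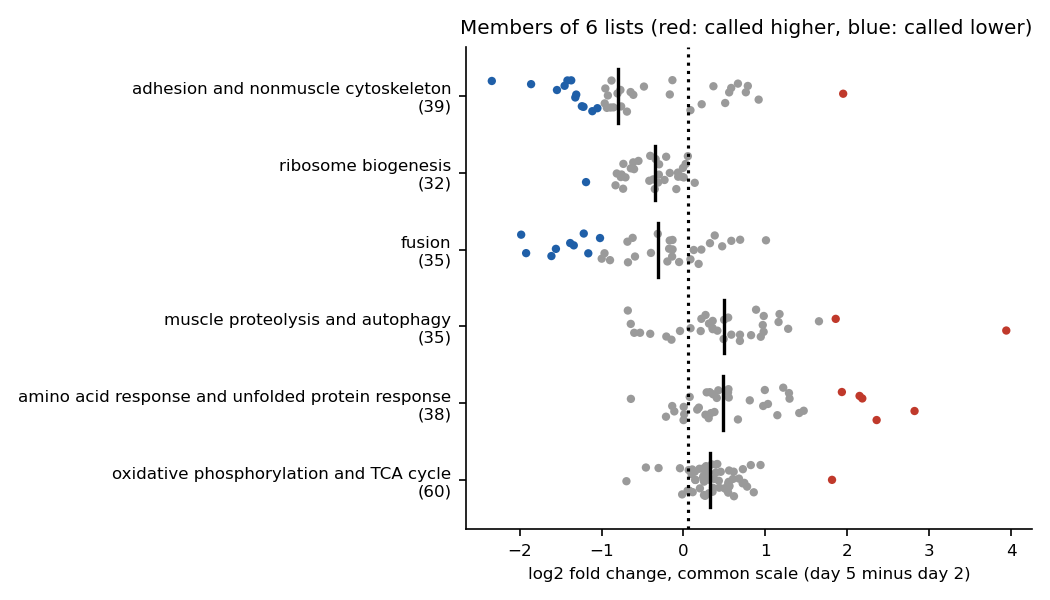
Log2 fold change on the common scale (x axis, day 5 minus day 2) of every tested member of 6 lists, 1 point per gene, with the list median as a black bar and the median of all genes as a dotted line; vertical position within a list is random. Ribosome biogenesis genes and oxidative genes form narrow clusters on opposite sides of the dotted line, while the amino acid and cytoskeleton lists have long tails.

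Secreted and imprinted growth regulators changed in both directions. Mstn, myostatin, the inhibitor of muscle growth, read 5.50 in myoblasts, 8.96, 8.94 and 8.96 at day 2, and 6.79, 6.99 and 7.18 at day 5, a difference of -1.96 and -1.23. Fst, follistatin, which binds it, read 9.21 on each day 2 array and 8.11 on each day 5 array, or -1.11 and -0.42, and was not called. Igfbp5, an IGF-binding protein of differentiating muscle, rose by 1.11 and 1.73, whereas Igfbp3, Igfbp7 and the receptor gene Igf1r fell. Ostn, musclin, and Il15 rose from levels under the array median, Ostn from 2.92 to 2.99 at day 2 to at least 5.85 on each day 5 array. Igf2 read 11.64 on each day 2 array and 10.63 to 10.71 at day 5, or -0.97 and -0.51.

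Of 22 imprinted network genes tested 4 fell and 1 rose, against 3.67% and 0.766% of all genes. Mest read 11.86 to 11.96 in myoblasts, 7.15 on each day 2 array and 4.66 to 4.74 at day 5. Peg3, Zim1, which neighbours it, and Peg10 fell as well. Grb10, an adaptor that restrains insulin and IGF1 receptor signalling, rose from 5.39 to 7.22 on every array. The fall of Peg10 was -0.96 on its smaller scale without the third day 5 array, and the call was lost. Hsp90aa1 was the 1 of 19 heat shock genes that fell, against 3.67% of all genes. It had the widest spread of the named genes, with 8.48, 8.96 and 9.28 at day 5. Its call was lost without the first day 5 array (-0.88 on its smaller scale).

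The remaining genes with the widest differences belong to several functions. The 20 widest rises among genes above the array median on the day 2 arrays included Fhl1, a LIM protein of muscle linked to myopathies, from 6.29 to 6.31 at day 2 to 9.24 at day 5. Igfn1, an immunoglobulin and fibronectin repeat protein of skeletal muscle, read 4.44, 4.33 and 4.33 and then 7.10, 7.21 and 7.21. Clip4, Adcy2, Tmem140, Hephl1, Cd24a, Cpe, Me3, Gpx3, Ndrg2 and Syngr1 made up most of the rest. Adcy2, an adenylyl cyclase, read 5.59 in myoblasts, 4.85 to 4.86 at day 2 and 7.25 to 7.29 at day 5, and Cd24a and Cpe likewise were lower at day 2 than on either side of it. The 20 widest falls included Mmd, Dpep1, Sytl2, Emp1, Clcn5, R3hdml, Tmem119, Ripply1 and Mylk4. Dpep1, a membrane dipeptidase, read 5.10 to 5.33 in myoblasts, 8.92 to 9.00 at day 2 and 5.93 at day 5, and Mylk4, a myosin light chain kinase family member, read 6.27, 9.35 to 9.38 and 6.63. Dpep1 and Mylk4 thus shared with Mymx and Ccn2 a level that was higher at day 2 than at day 0 and day 5 as deposited.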

How the data were processed

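The authors deposited log2 expression values from RMA, which corrects background, normalizes and summarises probes, run per replicate set per the series' design text. Software version, chip definition and build are not given in the sources used here. Sorted values of 2 arrays of one day differed by at most 0.0251 on average, and those of a day 2 and a day 5 array by at least 0.390, so the sets were the days. Of 35556 probe sets 21789 name 1 gene, 1621 several and 12146 none in the platform annotation. The probe set with the highest mean stood for each of 19938 genes, and 16582 were tested, being above the array's 30th percentile on at least 3 arrays. "Lowest 30%" means that no array of that day passed this percentile. All 9 arrays entered each fit (limma 3.58.1, R 4.3.3), with eBayes at its defaults. The fitting was tested on simulated data with independent noise on each array and an offset equal for all genes. That simulation held neither tied values nor an offset that varied with level, so it does not bear on them. The common scale is quantile normalization over 9 arrays. Named genes were the 20 widest rises and falls above the array median, up to 6 called members of each of 35 lists per direction, the pairs and a fixed set of myogenic genes. Other names complete a count or were chosen after their values were seen. The lists and genes were chosen with earlier results of these data known. Of 943 listed symbols 866 were tested. Same-numbered replicates did not deviate together (correlations 0.004, -0.038 and -0.036), so they were not paired. The small number of arrays limits precision. Promoter and miRNA sequences are RefSeq's, matched by symbol.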

Additional observations from a re-analysis of the deposited data

How the results depend on the processing

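The calls rest most on the scale. As deposited alone 2675 genes were called, 2548 of them lower. On the common scale alone 461 were called higher. With array medians brought to one value in place of quantile normalization 1414 were called, 1287 of them lower. Without the size limit the calls numbered 15588 as deposited and 15009 on the common scale. Bringing 75th percentiles to one value left 540 calls, of which 506 were among the 736, and ended the calls of Fgfr4, Heyl, Kif23, Nes, Pdgfrb, Pgm2, Tagln and Vcam1. Leaving out each myotube array in turn gave 722 to 762 calls, of which 118 to 130 were higher and 592 to 644 lower, and 8851 to 9067 calls without the size limit. Besides the genes given above, Nes lost its call without the first day 5 array, at -0.94. Quantile normalization over the 6 myotube arrays gave 673 calls and ended those of Fgfr4 (-0.98) and Kif23 (-0.92), and bringing medians to one value ended that of Kif23 (-0.89). Lpp lost its call with the mean of all probe sets of a gene, at -0.73. With the replicate number in the model as a replicate block 736 genes were called, the same ones, and no call of a named gene changed. No called gene among those named changed direction in these alternatives. Named genes that were not called could differ in sign between the scales, as Ampd2 (-0.57 and 0.16), Pfkp (-0.35 and 0.35) and Col1a1 (-0.31 and 0.21) did. Arrays give no depth, and weak genes limit the precision: 14 of the rises and 50 of the falls had their lower group in the lowest 30% of its arrays. The 127 genes called higher as deposited alone were the 127 of the rule. Likewise, the 609 called lower on the common scale alone were the 609 of the rule. The deposited values thus set which rises were called, and the common scale set which falls were called. What lies behind the offset between the days was not tested.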

Other observations

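MicroRNA genes, small nucleolar RNA genes and zinc finger genes were looked at after their values were seen, so their counts are descriptions. Of 165 microRNA genes tested 11 were lower at day 5 by the rule on both scales (6.67%) and 0 higher, beside 3.67% and 0.766% of all genes. Their median was -0.26 and 0.09, beside -0.40 and 0.05 for all genes, so the microRNA genes as a set were not lower than other genes. Mir206, a microRNA gene of skeletal muscle, read 5.39, 5.33 and 5.39 at day 2 and 1.89 on each day 5 array, a difference of -3.48 and -3.28. Its day 5 level was in the lowest 30% of the array. Mir1a-1 fell (-1.56 and -1.33), also to that range. The let-7 genes Mirlet7f-1 and Mirlet7d fell to under the array median, with -1.52 and -1.35 for the former and -1.29 and -1.03 for the latter. Other let-7 genes tested were not called, namely Mirlet7a-1 (-0.23 and 0.07), Mirlet7e (-0.66 and -0.36), Mirlet7g (-0.57 and -0.34) and Mirlet7i (-0.38 and -0.04). The probe sets read RNA from these genes in total RNA, and whether a mature microRNA changed was not measured. The mature sequences are shown for Mir206 and the let-7 genes that fell, 5′ to 3′, with the seed (bases 2 to 8) in capitals. The seeds of let-7f and let-7d are the same.
miR-206-3p: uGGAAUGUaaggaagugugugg
let-7f-5p: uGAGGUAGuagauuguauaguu
let-7d-5p: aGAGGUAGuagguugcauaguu

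Of 51 small nucleolar RNA genes 13 fell (25.5%) and 0 rose, against 3.67% and 0.766% of all genes. Of those that fell only Snora23 and Snora3 stayed above the array median at day 5. Among all 51, 38 lay above it at day 2 and 26 at day 5. Without the size limit 37 of the 51 were lower on both scales and 0 higher, against 40.6% and 16.2% of all genes. The median of the 51 was -0.83 and -0.49. Snord57 (-0.72 and -0.02) and Snord49b (-0.67 and 0.03), which lay above the array median, were nearly flat on the common scale. A link to Nop58 and the ribosome biogenesis list was not tested. Of 317 genes with a Zfp symbol 33 fell (10.4%) and 0 rose, against 3.67% and 0.766% of all genes. Semaphorin 3 genes fell in 3 of 7 and Pcdhb protocadherins in 6 of 19, beside 3.67% of all genes; these families too were picked after their values were seen. Of the 19 Pcdhb genes 4 lay above the array median at day 2 and 1 at day 5. Among single genes with a day 5 level under the array median, Mfsd2a, a lysophospholipid transporter, read 7.54, 7.63 and 7.54 at day 2 and 4.14, 4.14 and 3.74 at day 5. Gjd4, a connexin of muscle cells, read 6.46 on each day 2 array and 3.17, 3.17 and 3.26 at day 5. Tm4sf1, Cdh11, Adcy8 and Snai2 fell as well, with differences of -3.08 and -2.81, -2.91 and -2.58, -2.64 and -2.40, and -2.49 and -2.18.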
